A study of Mus musculus with 20 samples.

Results

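The autosomal genes of a female and a male mouse embryonic stem cell line were compared while both were kept in 2i medium, which holds the cells in the naive, preimplantation-like state of pluripotency by inhibiting MEK and GSK3. PGK is the female line and E14 the male line. Both were compared at day 0, before the move to medium with Activin A and Fgf2 that converts them to epiblast stem cells. The contrast set 2 PGK libraries against 2 E14 libraries, out of 20 libraries in the series. Each line had 1 library labelled diff2 and 1 labelled diff3, read here as 2 experiments. The labels give no transgene, knockout or drug other than the culture medium. Only genes assigned to chromosomes 1 to 19 were counted, 22124 of the 23361 entries in the deposited tables. Each sex was represented by a single line, so effects of sex cannot be told apart from effects of the line. The p-values measure only a spread between libraries, estimated over all 20 of them, day 0 and later stages together. The RNA came from bulk cultures, in which fewer cells of a type and less RNA per cell cannot be told apart.

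Female mouse embryonic stem cells in the naive state keep both X chromosomes active, and such cells are known for lower DNA methylation than male cells, imprinted regions included. An imprinted gene is normally read from a single parental copy and kept silent on the other by methylation. Naive cells also depend on Wnt signalling through beta-catenin, on LIF and STAT3, and on a low level of FGF and ERK signalling. The lists described here follow these processes.

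The day 0 libraries differed in depth. The PGK libraries held 12318878 counts (diff2) and 21388068 counts (diff3), and the E14 libraries 13406467 counts (diff2) and 3376500 counts (diff3). The diff3 E14 library was the shallowest of the 4. Its floor of 3 counts was 0.888 CPM (counts per 1000000 counts of the library), against 0.140 to 0.244 CPM in the other 3, and it stood apart: the Pearson correlation of log2 CPM across genes was 0.85 between the E14 libraries and 0.94 between the PGK libraries. Among the 15019 autosomal genes tested, 5038 had no counts in it, against 856 to 934 in the other 3. Markers went with the labels, since Ddx3y, a Y-linked helicase gene, had 0.0812 and 0 CPM in PGK and 107 and 185 CPM in E14. Pou5f1, the core pluripotency factor, had 1302 and 1074 CPM in PGK and 1299 and 1705 CPM in E14.

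Of the genes on all chromosomes that were tested, 79 of 15732 were called (0.502%) by edgeR's quasi-likelihood test with Benjamini-Hochberg adjustment at 0.05. On the autosomes 50 of 15019 genes were called (0.333%). In PGK 19 autosomal genes were higher (0.127%) and 31 were lower (0.206%). In all 50 both PGK libraries lay on the same side of both E14 libraries, as they did in 32% of the autosomal genes tested. Such separation was also a condition for naming most genes below, so its mention for a gene adds nothing to the call. The median PGK minus E14 difference of log2(CPM + 1) over autosomal genes was −0.01 in diff2 and 0.27 in diff3, while that of X-linked genes with a mean of at least 5 CPM was 0.97 and 1.32. Tested on simulated data, the same fit called 22 of 100 genes changed 4-fold, 0 of 100 genes changed 2-fold and 5 of 15221 unchanged genes. Genes not called may thus still differ, and some calls may be false, since 5 false calls stood beside 22 true ones. The simulation used each gene's mean over all stages and the spread of the main fit (common biological coefficient of variation 0.485). In a fit of the day 0 libraries alone that coefficient was 0.709, so false calls at the day 0 spread were not measured.

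**Figure D1:**
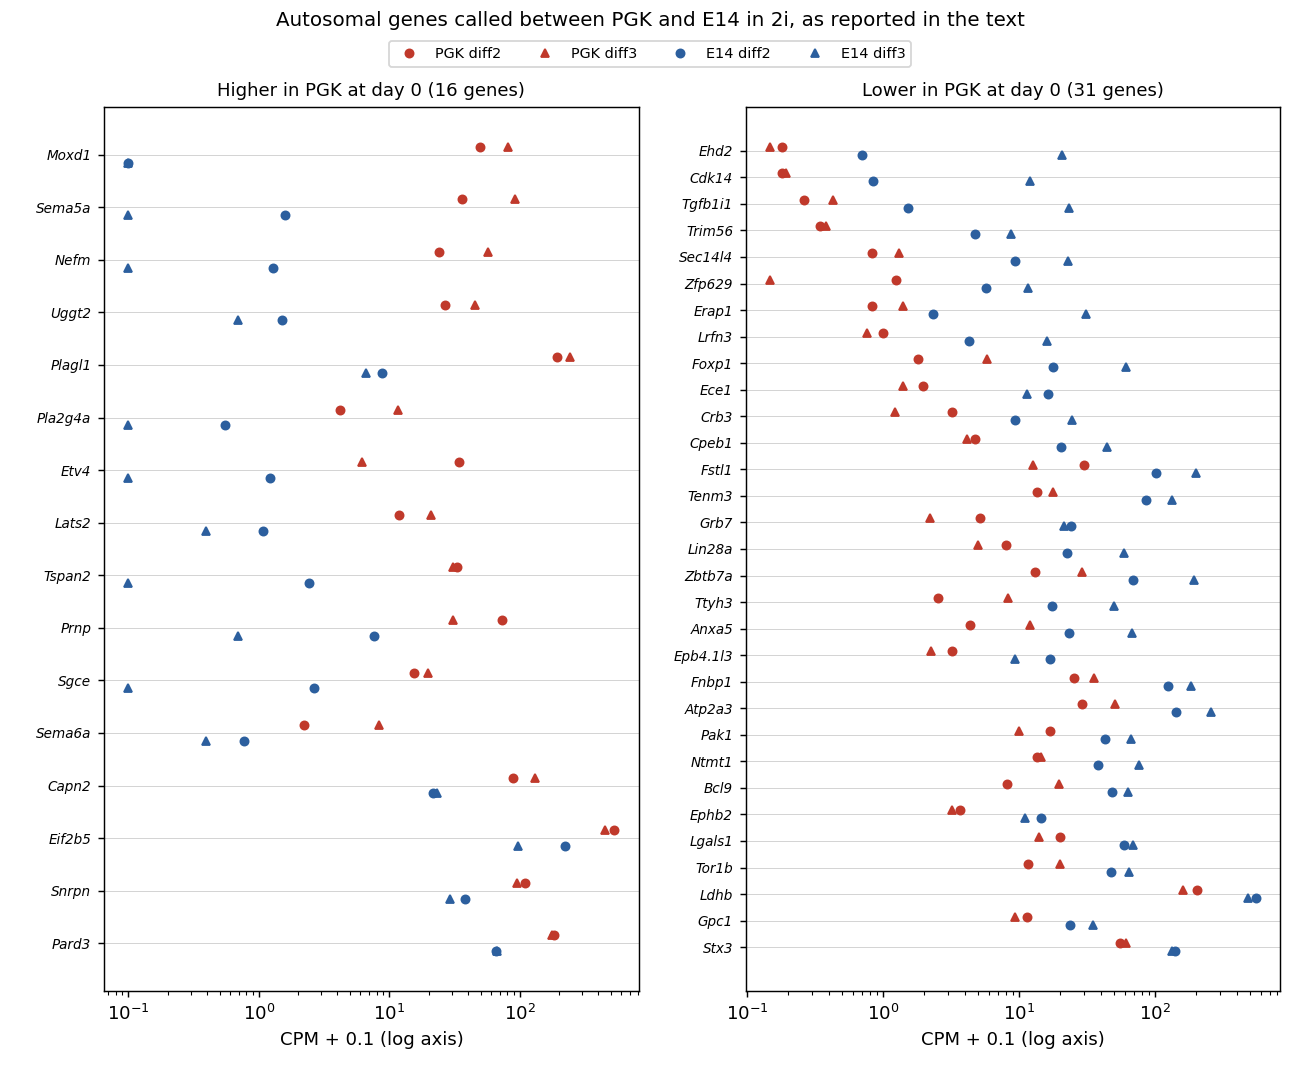
CPM + 0.1 at day 0 on a log axis for 16 of the 19 autosomal genes called higher and the 31 called lower in PGK, with PGK in red, E14 in blue, circles for diff2 and triangles for diff3 (1 library each). In every gene the red points lie apart from the blue points. A point at the left edge of the left panel is a library without counts.

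The 4 rises with the smallest adjusted p were Moxd1, Plagl1, Uggt2 and Sema5a. The stretches of 250 bases before their RefSeq transcription starts (GRCm38.p6) are shown because these genes lead the rises, and that of Lin28a because it is among the falls with the smallest adjusted p. RefSeq promoters were matched to 36 of the 50 called genes. They are printed 5′ to 3′ on the gene's strand, with CG dinucleotides, the sites of DNA methylation in mammals, in capitals.
Moxd1: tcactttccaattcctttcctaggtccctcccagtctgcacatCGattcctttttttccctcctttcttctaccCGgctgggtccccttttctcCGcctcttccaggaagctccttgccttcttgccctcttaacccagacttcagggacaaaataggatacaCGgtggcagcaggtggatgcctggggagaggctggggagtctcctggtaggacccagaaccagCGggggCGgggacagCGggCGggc
Plagl1: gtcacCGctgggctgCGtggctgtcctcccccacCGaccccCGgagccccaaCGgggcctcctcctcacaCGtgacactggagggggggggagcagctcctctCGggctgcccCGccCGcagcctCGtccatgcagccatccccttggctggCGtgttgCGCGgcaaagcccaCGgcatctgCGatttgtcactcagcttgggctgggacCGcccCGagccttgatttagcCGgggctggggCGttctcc
Uggt2: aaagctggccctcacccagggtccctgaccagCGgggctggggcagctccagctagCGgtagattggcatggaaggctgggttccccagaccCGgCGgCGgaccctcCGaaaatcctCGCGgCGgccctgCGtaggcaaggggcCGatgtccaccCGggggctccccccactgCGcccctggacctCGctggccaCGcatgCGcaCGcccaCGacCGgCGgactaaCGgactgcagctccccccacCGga
Sema5a: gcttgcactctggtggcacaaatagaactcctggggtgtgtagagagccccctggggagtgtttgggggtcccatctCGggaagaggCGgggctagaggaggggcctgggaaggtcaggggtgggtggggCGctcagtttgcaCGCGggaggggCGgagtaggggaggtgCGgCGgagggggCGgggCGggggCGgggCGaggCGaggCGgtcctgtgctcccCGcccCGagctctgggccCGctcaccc
Lin28a: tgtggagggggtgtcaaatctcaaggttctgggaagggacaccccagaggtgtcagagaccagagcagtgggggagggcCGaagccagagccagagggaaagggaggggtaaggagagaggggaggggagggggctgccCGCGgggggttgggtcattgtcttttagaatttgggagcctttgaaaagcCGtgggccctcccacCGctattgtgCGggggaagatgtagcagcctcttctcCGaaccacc
The window of Moxd1 (chr10:24223267-24223516, plus strand) held 8 CG, that of Plagl1 (chr10:13090582-13090831, plus strand) 19, that of Uggt2 (chr14:119099435-119099684, minus strand) 22, that of Sema5a (chr15:32244563-32244812, plus strand) 17 and that of Lin28a (chr4:134018817-134019066, minus strand) 7. The median over 32851 RefSeq promoter windows of this length was 6. Windows with at least as many CG made up 43.0% of all for Moxd1, 19.7% for Plagl1, 14.8% for Uggt2, 23.5% for Sema5a and 46.3% for Lin28a. The counts describe the letters only, and DNA methylation was not measured.

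Moxd1, a monooxygenase-like gene related to dopamine beta-hydroxylase (chromosome 10, 24223517 to 24302790), had 49.1 CPM (diff2) and 81.6 CPM (diff3) in PGK and no counts in either E14 library. It was at least 366-fold higher in PGK, taking 3 counts over both E14 libraries as the floor (edgeR adjusted p = 6.7e-05). Plagl1, an imprinted zinc finger transcription factor gene (chromosome 10, 13060504 to 13131694), had 194 and 240 CPM in PGK and 8.65 and 6.52 CPM in E14. Its log2 fold change was 4.88 ± 0.50 (SE), which is 29.4-fold (edgeR adjusted p = 0.000148). PGK and E14 libraries stood far apart in both genes, in both experiments.

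Uggt2, a glucosyltransferase gene of glycoprotein folding control in the endoplasmic reticulum, had 26.7 and 45.5 CPM in PGK and 1.42 and 0.592 CPM in E14. It was higher by 5.05 ± 0.63 on the log2 scale (edgeR adjusted p = 0.000763). Sema5a, a semaphorin gene of axon guidance, had 35.8 and 92.0 CPM in PGK and 1.49 and 0 CPM in E14, a log2 fold change of 6.08 ± 0.83 (edgeR adjusted p = 0.00215). Neither gene's PGK range came near its E14 range. Moxd1, Plagl1, Uggt2 and Sema5a were also the rises called with any 1 of the 4 day 0 libraries left out.

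Lats2, a Hippo pathway kinase gene that phosphorylates the coactivator Yap1, had 11.9 and 20.7 CPM in PGK and 0.970 and 0.296 CPM in E14. Its log2 fold change was 4.49 ± 0.76 (edgeR adjusted p = 0.0122), and the 4 libraries did not overlap. Other genes of the pathway were not called. Lats1 had 24.1 and 37.5 CPM in PGK and 41.0 and 101 CPM in E14 (log2 fold change −1.11 ± 0.39, edgeR adjusted p = 0.242), and Yap1 had 161 and 231 CPM in PGK and 170 and 299 CPM in E14 (edgeR adjusted p = 0.851). Of 29 Hippo genes tested, edgeR called Lats2 alone and DESeq2 called 1 higher. At unadjusted p under 0.05, 2 were higher and 2 lower. Lats2 is also a published target of miR-290 and miR-302, and of 25 such targets tested it was again the 1 called. DESeq2 called 1 of these targets higher, and 2 were higher and 1 lower at unadjusted p under 0.05. Over all autosomal genes edgeR called 0.127% higher and 0.206% lower, and DESeq2 1.62% and 2.14%. At unadjusted p under 0.05, 5.75% of them were higher and 5.15% lower.

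Nefm, Prnp and Tspan2 were also higher in PGK. Nefm, the medium neurofilament chain, had 23.9 and 57.2 CPM in PGK and 1.19 and 0 CPM in E14 (log2 fold change 5.68 ± 0.98, edgeR adjusted p = 0.0127). Prnp, the prion protein gene, had 73.5 and 30.8 CPM in PGK and 7.53 and 0.592 CPM in E14 (3.50 ± 0.65, edgeR adjusted p = 0.0217). Tspan2, a tetraspanin gene, had 33.0 and 30.9 CPM in PGK and 2.31 and 0 CPM in E14 (4.49 ± 0.90, edgeR adjusted p = 0.0347). In each of the 3 the PGK libraries were above both E14 libraries, and the diff3 E14 library was the lowest. Of 17 neuroectoderm markers tested none was called by edgeR or DESeq2, 0 were under an unadjusted p of 0.05, and their summed level was 185 and 164 CPM in PGK and 158 and 246 CPM in E14.

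Etv4, an ETS factor gene induced by FGF and ERK signalling, had 34.3 and 6.03 CPM in PGK and 1.12 and 0 CPM in E14, a log2 fold change of 4.69 ± 0.80 (edgeR adjusted p = 0.0122). The PGK libraries differed from each other but both lay above E14. Of 32 FGF and ERK response genes tested Etv4 was the 1 called by edgeR. DESeq2 called 4 higher, where it called 1.62% of all autosomal genes higher, and 5 were higher and 1 lower at unadjusted p under 0.05, where 5.75% and 5.15% of all autosomal genes were. Dusp4, an ERK phosphatase gene, had 34.5 and 0.327 CPM in PGK and 0.671 and 0.296 CPM in E14 and was not called (edgeR adjusted p = 0.105).

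Pla2g4a, the cytosolic phospholipase A2 gene, had 4.06 and 11.6 CPM in PGK and 0.448 and 0 CPM in E14 (log2 fold change 4.71 ± 0.99, edgeR adjusted p = 0.0464, and 0.051 with the experiment as a block). Pard3, a cell polarity gene, had 184 and 175 CPM in PGK and 65.6 and 66.6 CPM in E14 (1.51 ± 0.23, edgeR adjusted p = 0.00586). The replicates of Pard3 lay closer together than the lines.

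Capn2, a calpain protease gene, had 88.5 and 131 CPM in PGK and 21.5 and 23.1 CPM in E14 (2.37 ± 0.45 on the log2 scale, edgeR adjusted p = 0.0278). Eif2b5, the catalytic subunit of the translation factor eIF2B, had 531 and 447 CPM in PGK and 223 and 96.3 CPM in E14 (1.66 ± 0.34, edgeR adjusted p = 0.0383). Both PGK libraries again exceeded both E14 libraries. Sema6a, a semaphorin gene named after its values were seen, had 2.11 and 8.18 CPM in PGK and 0.671 and 0.296 CPM in E14 (3.23 ± 0.67, edgeR adjusted p = 0.0421).

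Of 64 imprinted genes tested 3 were called higher and 0 lower, where 0.127% of all autosomal genes were called higher and 0.206% lower. Besides Plagl1 these were Sgce and Snrpn, both normally read from the paternal copy. Sgce, the epsilon-sarcoglycan gene, had 15.3 and 19.5 CPM in PGK and 2.54 and 0 CPM in E14 (log2 fold change 3.47 ± 0.65, edgeR adjusted p = 0.0261). Snrpn, a splicing protein gene, had 110 and 94.2 CPM in PGK and 38.0 and 29.02 CPM in E14 (1.66 ± 0.28, edgeR adjusted p = 0.0122). In both the lines did not overlap.

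Neighbours of both gave values in the same direction without a call. Peg10, which lies beside Sgce, had 104 and 644 CPM in PGK and 18.8 and 121 CPM in E14 (edgeR adjusted p = 0.136), and its lowest PGK library fell below its highest E14 library. Snurf, read from the same transcripts as Snrpn, so that reads of the pair may be split between them, had 6.49 and 5.61 CPM in PGK and 2.24 and 1.78 CPM in E14 (edgeR adjusted p = 0.184). The median difference of log2(CPM + 1) was 0.00 in diff2 and 0.37 in diff3, against −0.01 and 0.27 over all autosomal genes. By DESeq2 7 of the 64 were called higher and 3 lower, against 1.62% and 2.14% of all autosomal genes. Before adjustment 9 of the 64 were higher and 5 lower at p under 0.05, where 5.75% of all autosomal genes were higher and 5.15% lower. Cdkn1c, a maternally expressed cell cycle inhibitor gene, had 0.325 and 0.234 CPM in PGK and 1.49 and 15.1 CPM in E14 (edgeR adjusted p = 0.0832).

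Of the 19 rises, 8 had no counts in the shallow diff3 E14 library and 12 had 3 or fewer. With that library left out 5 of the 19 were still called (Moxd1, Sema5a, Uggt2, Plagl1 and Sgce), and edgeR adjusted p-values of the others described here ran from 0.0563 for Pard3 to 0.203 for Eif2b5. Without the diff2 PGK library 13 were called and 6 were not, from Snrpn at 0.0699 to Eif2b5 at 0.143. Without the diff3 PGK library 10 were called and 9 were not, from Lats2 at 0.0517 to Sema6a at 0.236. Without the diff2 E14 library the shallow library alone stood for E14 at day 0, and calls rose over all autosomal genes. That fit is no check on these 19. No sign changed.

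Among the falls, Lin28a and Tenm3 had small adjusted p-values. Lin28a, the RNA-binding protein gene that blocks maturation of let-7 microRNAs, had 7.87 and 4.86 CPM in PGK and 22.5 and 58.9 CPM in E14. It fell by 2.58 ± 0.40 on the log2 scale (edgeR adjusted p = 0.00586). Tenm3, a teneurin adhesion gene, had 13.5 and 17.6 CPM in PGK and 85.3 and 133 CPM in E14, and fell by 2.73 ± 0.38 (edgeR adjusted p = 0.00219). The highest PGK library lay below the lowest E14 library in both. Tenm3 was called with any 1 of the 4 libraries left out, Lin28a was not (0.0636 without the diff3 E14 library, 0.0746 without the diff3 PGK library).

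Of 32 genes of the Lin28 and let-7 list, 1 was called higher (Plagl1) and 1 lower (Lin28a). At unadjusted p under 0.05, 8 were lower and 2 higher, where 5.15% of all autosomal genes were lower and 5.75% higher. Its median difference of log2(CPM + 1) was −0.30 in diff2 and −0.21 in diff3, against −0.01 and 0.27 over all autosomal genes. Igf2bp3, an RNA-binding let-7 target gene, had 130 and 196 CPM in PGK and 267 and 277 CPM in E14 (edgeR adjusted p = 0.303). Lin28b, the paralog of Lin28a, had 7.79 and 15.9 CPM in PGK and 10.1 and 21.03 CPM in E14 (edgeR adjusted p = 0.844), so its lines overlapped.

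Ece1, the endothelin-converting enzyme gene, had 1.87 and 1.31 CPM in PGK and 16.1 and 11.3 CPM in E14, and fell by 3.07 ± 0.48 on the log2 scale (edgeR adjusted p = 0.0068). Fstl1, a secreted follistatin-like glycoprotein gene, had 30.1 and 12.5 CPM in PGK and 102 and 200 CPM in E14 (−2.75 ± 0.45, edgeR adjusted p = 0.00887). Pak1, a kinase gene of the cytoskeleton, had 16.8 and 9.96 CPM in PGK and 43.0 and 66.3 CPM in E14 (−1.96 ± 0.34, edgeR adjusted p = 0.0122). The lines did not overlap in any of the 3. Lgals1, the galectin-1 gene, had 20.0 and 13.9 CPM in PGK and 59.0 and 69.3 CPM in E14 (−1.85 ± 0.32, edgeR adjusted p = 0.0122).

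Fstl1 was also the 1 called by edgeR of 19 fibroblast and feeder markers, where 0.206% of all autosomal genes were called lower. DESeq2 called 1 higher and 1 lower, against 1.62% and 2.14% of all autosomal genes. At unadjusted p under 0.05, 3 were higher and 2 lower, against 5.75% and 5.15%. The summed level of the 19 markers was 181 and 189 CPM in PGK and 338 and 471 CPM in E14. Of these markers 6 and 6 had no counts in PGK, against 6 and 16 in E14. In the diff3 E14 library 5038 of the 15019 autosomal genes tested had no counts. Vim, the vimentin gene, made up much of it with 109 and 156 CPM in PGK and 205 and 263 CPM in E14. Of the collagen genes that define fibroblasts, Col1a1 had 5.76 and 2.85 CPM in PGK and 0.970 and 0 CPM in E14, the opposite order to the summed level, and Col3a1, at or near 0, had 0 and 0 CPM in PGK and 0.0746 and 0 CPM in E14. The part of these markers in the fall of Fstl1 was not tested.

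Ldhb, Atp2a3, Fnbp1 and Stx3 were also lower in PGK. Ldhb, a lactate dehydrogenase subunit gene, had 203 and 161 CPM in PGK and 558 and 489 CPM in E14 (log2 fold change −1.46 ± 0.28, edgeR adjusted p = 0.0292). It was the 1 called by edgeR of 23 glycolysis genes, where 0.206% of all autosomal genes were called lower. DESeq2 called 1 of the 23 lower, against 2.14% of all autosomal genes. At unadjusted p under 0.05, 0 were higher and 2 lower, against 5.75% and 5.15%. Atp2a3, a calcium pump gene of the endoplasmic reticulum, had 28.9 and 50.8 CPM in PGK and 144 and 257 CPM in E14 (−2.25 ± 0.40, edgeR adjusted p = 0.0171, and 0.0775 with GC-corrected offsets). Fnbp1, a membrane-bending F-BAR protein gene, had 25.3 and 35.3 CPM in PGK and 126 and 183 CPM in E14 (−2.27 ± 0.40, edgeR adjusted p = 0.0144). Stx3, a syntaxin gene of vesicle fusion, had 55.1 and 60.9 CPM in PGK and 141.9 and 134 CPM in E14 (−1.18 ± 0.25, edgeR adjusted p = 0.0457, and 0.0588 without the low-count filter). In each of these genes the PGK libraries were below both E14 libraries.

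The largest falls on the log2 scale were in genes with few counts in PGK. Ehd2, a caveolar ATPase gene, had 0.0812 and 0.0468 CPM in PGK, 1 count in each library, and 0.597 and 20.7 CPM in E14. Cdk14, a cyclin-dependent kinase gene, had 0.0812 and 0.0935 CPM in PGK and 0.746 and 11.9 CPM in E14. Tgfb1i1, a focal adhesion adaptor gene, had 0.162 and 0.327 CPM in PGK and 1.42 and 23.1 CPM in E14. All 3 were called (edgeR adjusted p = 0.0295, 0.0228 and 0.0331), and in all 3 the diff3 E14 library was more than 3 times as high as the diff2 one.

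Trim56, a ubiquitin ligase gene, had 0.244 and 0.281 CPM in PGK and 4.62 and 8.59 CPM in E14 (log2 fold change −4.50 ± 0.87, edgeR adjusted p = 0.0295). Zfp629, a zinc finger gene, had 1.14 and 0.0468 CPM in PGK and 5.59 and 11.6 CPM in E14 (−3.90 ± 0.77, edgeR adjusted p = 0.0329). Sec14l4, of the SEC14 lipid-binding family, had 0.731 and 1.22 CPM in PGK and 9.17 and 22.8 CPM in E14 (−3.92 ± 0.76, edgeR adjusted p = 0.0292). All E14 libraries were above all PGK libraries in these 3 genes. Foxp1, a forkhead transcription factor gene, had 1.71 and 5.75 CPM in PGK and 17.8 and 61.6 CPM in E14 (−3.28 ± 0.67, edgeR adjusted p = 0.0403).

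Erap1, an aminopeptidase gene that trims antigenic peptides, had 0.731 and 1.31 CPM in PGK and 2.24 and 30.8 CPM in E14 (−3.81 ± 0.80 on the log2 scale, edgeR adjusted p = 0.0464). Lrfn3, a synaptic adhesion gene, had 0.893 and 0.655 CPM in PGK and 4.18 and 16.0 CPM in E14 (−3.59 ± 0.76, edgeR adjusted p = 0.0464, 0.0502 with the experiment as a block and 0.0661 with GC-corrected offsets). Their E14 libraries differed more from each other than did their PGK libraries. The 12 falls outside the naming rule, listed after their values were seen, had log2 fold changes from −2.91 (Crb3) to −1.43 (Gpc1). They were the epithelial polarity gene Crb3, the translation regulator Cpeb1, the signalling adaptor Grb7, the repressor Zbtb7a, Ttyh3, the annexin Anxa5, the cytoskeletal linker Epb4.1l3, the N-terminal methyltransferase Ntmt1, the beta-catenin coactivator Bcl9, the ephrin receptor Ephb2, the torsin Tor1b and the glypican Gpc1.

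With the shallow diff3 E14 library left out, 3 of the 31 falls were still called (Tenm3, Ece1 and Epb4.1l3), and edgeR adjusted p-values of the other 28 ran from 0.0536 for Ephb2 to 0.713 for Erap1. Without the diff2 PGK library 8 were called, and the others reached 0.278 (Anxa5). Without the diff3 PGK library 6 were called, and the others reached 0.226 (Grb7). The fit without the diff2 E14 library, in which calls rose over all autosomal genes, is again no check on these 31. Without the low-count filter 28 of the 31 falls were called, and Stx3, Ephb2 and Lrfn3 were not, at edgeR adjusted p-values of 0.0588, 0.0615 and 0.0522. With GC-corrected offsets, an alternative added after the data were seen, 18 of the 19 rises and 22 of the 31 falls were called. The falls no longer called were Atp2a3, Lrfn3, Zbtb7a, Anxa5, Ntmt1, Bcl9, Ephb2, Gpc1 and Ttyh3, with adjusted p-values by edgeR up to 0.15 for Ttyh3. The median GC content was 48.8% over the rises and 53.4% over 30 of the falls. The median line difference of log2(CPM + 1) was taken in 5 equal groups of genes by GC content. In diff2 it was −0.0027 in the lowest group and −0.0735 in the highest, whereas in diff3 it was 0.56 and −0.29. Within PGK the median log2 difference of diff3 minus diff2 was 0.29 in the lowest group and −0.36 in the highest. Within E14 it was −0.28 and −0.15.

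At 4-fold or more on the log2(CPM + 1) scale, 128 autosomal genes were higher and 143 lower in PGK in diff2, and 2066 higher and 472 lower in diff3. Both experiments had 83 of these genes higher, which is 64.8% of those higher in diff2 and 4.02% of those higher in diff3. Both had 37 lower, 25.9% of those in diff2 and 7.84% of those in diff3, and 16 went opposite ways. The diff3 difference uses the shallow E14 library. In a fit of the 4 day 0 libraries alone 3 autosomal genes were called, and 1 after thinning all 4 to its depth.

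**Figure D2:**
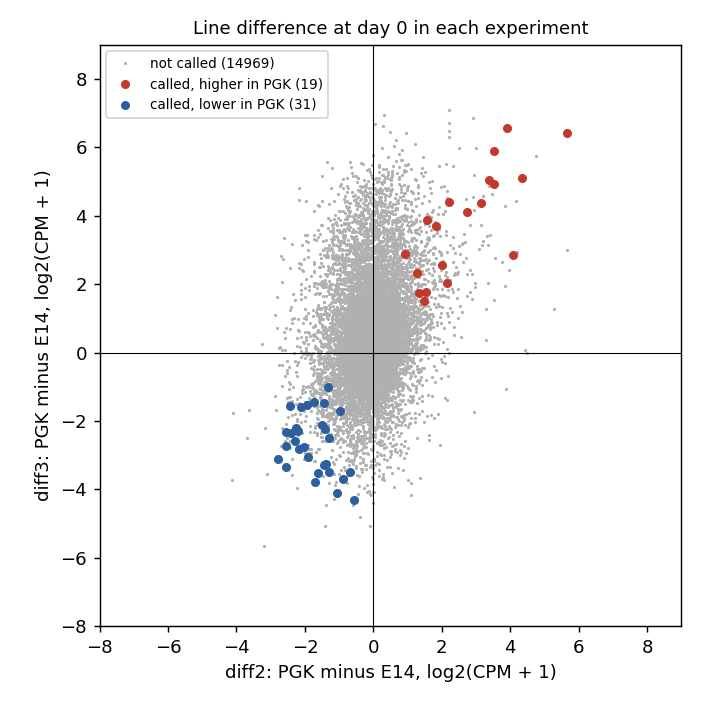
PGK minus E14 difference of log2(CPM + 1) at day 0 for 15019 autosomal genes, diff2 on the horizontal and diff3 on the vertical axis, 1 point per gene. Called genes (19 higher in red, 31 lower in blue) lie in the quadrants where both experiments have the same sign, and the grey cloud is wider along the diff3 axis.

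Naive and core pluripotency genes gave no calls with edgeR. None of 31 naive genes passed edgeR's test, with 1 higher and 1 lower at unadjusted p under 0.05 and 1 higher by DESeq2. None of 13 core genes passed it, with 0 higher and 2 lower at unadjusted p under 0.05 and 0 by DESeq2. Nanog, the naive homeobox factor, had 927 and 935 CPM in PGK and 639 and 622 CPM in E14 (edgeR adjusted p = 0.52). Klf4, a naive Krüppel-like factor, had 282 and 423 CPM in PGK and 457 and 550 CPM in E14 (edgeR adjusted p = 0.594). Neither gene's lines overlapped, and neither difference passed the test. Of 32 primed genes Etv4 was the 1 called, with 4 higher and 6 lower at unadjusted p under 0.05 and 1 higher and 3 lower by DESeq2. By edgeR none of 17 LIF and STAT3 genes was called (1 higher and 2 lower at unadjusted p under 0.05, 0 by DESeq2). Among all autosomal genes 5.75% were higher and 5.15% lower at unadjusted p under 0.05. DESeq2 called 1.62% of them higher and 2.14% lower.

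Of 30 Wnt and beta-catenin genes edgeR called none and DESeq2 called 3 lower, and 8 were lower and 1 higher at unadjusted p under 0.05. Over all autosomal genes DESeq2 called 2.14% lower, and 5.15% were lower and 5.75% higher at unadjusted p under 0.05. The median difference of log2(CPM + 1) was −0.32 in diff2 and −0.27 in diff3, below the −0.01 and 0.27 over all autosomal genes. Cdx1, a homeobox target of Wnt signalling, had 5.52 and 3.27 CPM in PGK and 34.4 and 30.5 CPM in E14 (edgeR adjusted p = 0.293). Axin2, a feedback inhibitor gene of the pathway, had 11.4 and 44.4 CPM in PGK and 71.5 and 68.7 CPM in E14 (edgeR adjusted p = 0.517). PGK libraries were lower in both genes, without passing the test. Bcl9, the beta-catenin coactivator gene among the falls called by edgeR (log2 fold change −1.94), was not on this list.

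Of 26 genes of the DNA methylation machinery edgeR called none and DESeq2 called 2 higher, and 5 were higher and 0 lower at unadjusted p under 0.05. Over all autosomal genes DESeq2 called 1.62% higher, and 5.75% were higher and 5.15% lower at unadjusted p under 0.05. The summed level of the 26 genes was lower in PGK, at 6249 and 6414 CPM, than in E14, at 6892 and 7217 CPM. The median difference of log2(CPM + 1) was 0.26 in diff2 and 0.23 in diff3, against −0.01 and 0.27 over all autosomal genes. Dnmt3b, a de novo methyltransferase gene, had 45.6 and 41.4 CPM in PGK and 27.7 and 25.8 CPM in E14 (edgeR adjusted p = 0.431). Dppa3, which protects methylation in the zygote, had 25.2 and 60.5 CPM in PGK and 3.65 and 0 CPM in E14 (edgeR adjusted p = 0.189). Of 39 germ line genes known to be silenced by DNA methylation edgeR called none and DESeq2 called 1 lower, and 6 were higher and 1 lower at unadjusted p under 0.05, against the same 5.75% and 5.15% of all autosomal genes (2.14% lower by DESeq2). Their summed level was 1684 and 1432 CPM in PGK and 970 and 508 CPM in E14, and 19 of them had no counts in the diff3 E14 library, against 0 or 1 in the other 3. In that shallow library 5038 of the 15019 autosomal genes tested had no counts. Asz1, a germ cell gene of transposon silencing, had 13.8 and 27.3 CPM in PGK and 0.448 and 0 CPM in E14 (edgeR adjusted p = 0.135).

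Markers of other cells were summed at day 0. Extraembryonic endoderm markers (18 tested) summed to 36.2 and 51.8 CPM in PGK and 16.6 and 41.8 CPM in E14. Of these 11 had no counts in the shallow diff3 E14 library, as had 5038 of the 15019 autosomal genes tested. Mesoderm and primitive streak markers (16 tested) summed to 48.2 and 46.2 CPM in PGK and 61.5 and 75.8 CPM in E14. Trophoblast markers (16 tested) summed to 388 and 247 CPM in PGK and 227 and 429 CPM in E14. EdgeR called none of them. Among all autosomal genes 5.75% were higher and 5.15% lower at unadjusted p under 0.05, and DESeq2 called 1.62% higher and 2.14% lower. At unadjusted p under 0.05 the endoderm list had 1 higher and 0 lower (0 by DESeq2), the mesoderm list 1 higher and 2 lower (1 lower by DESeq2) and the trophoblast list 3 higher and 1 lower (1 and 1 by DESeq2), and the last 2 share Eomes and Hand1.

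Day 4 and later libraries were compared next. Their levels did not enter the day 0 contrast, but they shared in its low-count filter, scaling and estimate of the spread. The diff3 E14 library of day 4 was the shallowest of the series, with 2020254 counts, where 3 counts are 1.48 CPM. At day 4, 18 autosomal genes were called between the lines (0.12%), and of the 50 day 0 genes Plagl1 was the 1 called. Over days 10 to 30, 35 were called (0.233%), among them Plagl1 higher and Fnbp1 and Tor1b lower. The median log2 fold change of the 19 rises was 4.49 at day 0 (the same with Moxd1 at its bound), 0.28 at day 4 and 0.12 over days 10 to 30, and that of the 31 falls was −2.58, −0.26 and −0.24. These genes were chosen by their day 0 differences, so smaller medians later follow in part from that choice. The direction of day 0 was kept at day 4 by 14 rises and 18 falls, and over days 10 to 30 by 13 rises and 26 falls. The same share over all autosomal genes is not given here, so these counts have no background to be read against.

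Plagl1 stayed apart throughout. At day 4 it had 17.4 and 23.3 CPM in PGK and 0.515 and 0 CPM in E14 (edgeR adjusted p = 0.000332), and at days 27 to 30 it had 39.8 and 35.6 CPM in PGK and no counts in E14. From day 4 on it measured at least 17.4 CPM in every PGK library and was at or under 0.515 CPM in E14, except that 0 counts in the diff3 E14 library of day 4 allow up to 1.48 CPM. Moxd1 did not stay apart: it had 5.12 and 8.45 CPM in PGK and 12.6 and 13.9 CPM in E14 at day 4, and 17.8 and 5.42 CPM in PGK and 18.8 and 36.3 CPM in E14 at days 27 to 30. Uggt2 had 22.0 and 26.03 CPM in PGK and 17.5 and 21.3 CPM in E14 at day 4. In both genes the E14 level was above its day 0 level from day 4 on.

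Lats2 had 11.5 and 11.8 CPM in PGK and 6.85 and 12.9 CPM in E14 at day 4, where the lines overlapped. Lin28a had 437 and 519 CPM in PGK and 564 and 550 CPM in E14 at day 4 (edgeR adjusted p for the line difference = 1). Tenm3 had 142.2 and 138 CPM in PGK and 95.5 and 55.4 CPM in E14 at days 19 to 23, the opposite order to day 0. Fnbp1 stayed lower in PGK over days 10 to 30 (log2 fold change −1.43 ± 0.22, edgeR adjusted p = 0.00554), as did Tor1b (−0.94 ± 0.19, edgeR adjusted p = 0.0477).

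**Figure D3:**
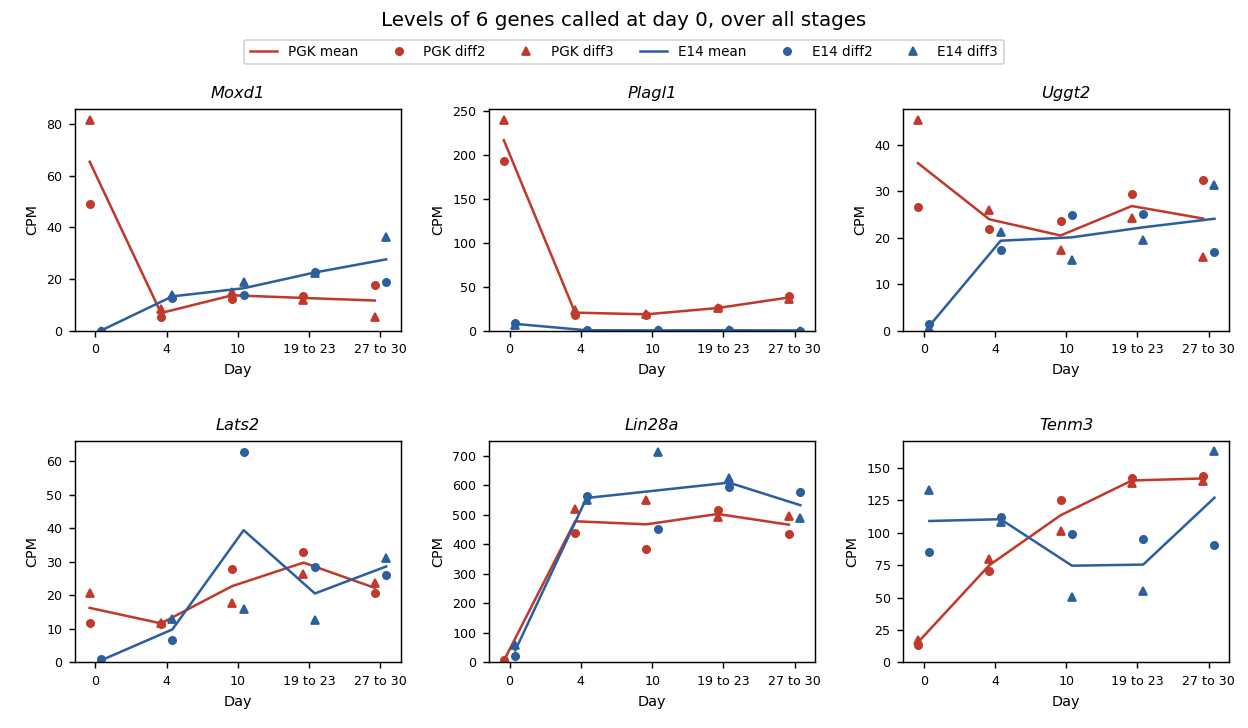
CPM of 6 genes called at day 0 across the 5 stages, PGK in red and E14 in blue, circles for diff2, triangles for diff3 and lines for the mean of 2 libraries. The lines are apart at day 0 in all 6 genes, and Plagl1 is the one in which E14 stays near 0 at every later stage.

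The line difference at day 0 differed from that over days 10 to 30 in 9 of 15019 autosomal genes (0.0599%), which were all among the 50. Those reported here were Moxd1, Sema5a, Uggt2, Lats2 and Prnp with a higher PGK to E14 ratio at day 0, and Plagl1, Tenm3 and Lgals1 with a lower one. This test shares the day 0 libraries with the contrast that chose the genes.

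Genes of chromosome 8 were shifted towards PGK. Among 581 chromosome 8 genes with a mean of at least 5 CPM at day 0, the median PGK minus E14 difference of log2(CPM + 1) was 0.35 in diff2 and 0.40 in diff3, and 71.3% and 68.2% of the genes were above 0. The median was above 0 in all 10 pairs of libraries over the 5 stages, from 0.33 to 0.54, which is 1.25-fold to 1.46-fold. Chromosome 6 came next, above 0 in 8 of 10 pairs, and chromosomes 7 and 17 were above 0 in 1 of 10. Chromosome 1 had 0.51 in diff3 and 0.0078 in diff2. The shift of chromosome 8 is a description over genes of 1 line pair, with no test. Of the 581 genes 3 were called at day 0, among them Pard3 higher and Tenm3 lower.

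**Figure D4:**
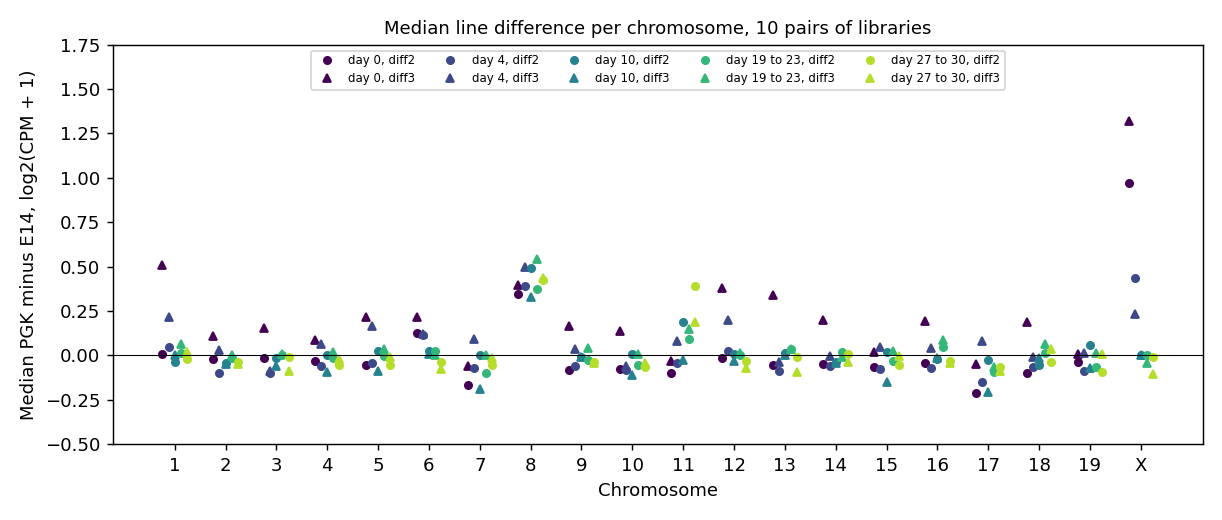
Median PGK minus E14 difference of log2(CPM + 1) per chromosome (vertical axis) in each of 10 pairs of libraries, coloured by stage, with circles for diff2 and triangles for diff3. Chromosome 8 lies between 0.33 and 0.54 in all 10 pairs, and the X chromosome is high at day 0 and near 0 from day 10 on.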

How the data were processed

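Raw counts per gene were deposited by the authors for 20 libraries. Per the labels, the libraries are stranded mRNA; per the submitters' processing notes, CASAVA 1.8.2, Cuffdiff, DESeq2 and GRCm38 (mm10) were used. Which aligner and annotation were used, and whether counting used strand, was not given in these sources. Tables of the lines were joined on the gene name, and normalized tables were not used. A chromosome was assigned to genes by GENCODE M21 or RefSeq names, and 162 entries had none.

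Counts were tested with edgeR 4.0.16 (R 4.3.3): TMM scaling, filterByExpr (minimum count 10), 1 mean per line and stage over all 20 libraries (10 residual degrees of freedom, common biological coefficient of variation 0.485), robust quasi-likelihood tests, and Benjamini-Hochberg adjustment over 15732 genes at 0.05. In a fit of the 4 day 0 libraries alone, over 12827 genes, the common coefficient of variation was 0.709. The spread used in the main fit was thus smaller than that of the day 0 libraries. Of the autosomal genes 7105 were not tested and 681 of those tested had under 3 counts over the day 0 libraries. CPM are counts per 1000000 counts of a library, and log2(CPM + 1) differences use TMM-scaled totals. A pair of libraries per group cannot reach a small exact permutation p. In the simulated data 5 of 15221 unchanged genes were called, beside 22 of 100 changed 4-fold and 0 of 100 changed 2-fold. Each simulated library had the spread of the main fit, so false calls at the wider day 0 spread were not measured.

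The called genes are named by rule: Moxd1, Plagl1, Lin28a and Lats2, the 10 largest changes, the 6 smallest adjusted p and the 5 highest levels in each direction (mean of at least 2 CPM in the higher line), and called genes of the lists, up to 4 each. The ranked genes also had to have both libraries of 1 line above both of the other, which held in all 50 called genes. Predicted genes and pseudogenes were left out of the ranking. The rule gave 33 genes, besides those of the lists, and 3 of the called genes are not reported here. Members and lists were chosen with earlier results of these data known. Both lines carry the labels diff2 and diff3, which were read as differentiation experiments shared by the lines, and so as pairing the libraries. The labels do not state this, and after day 10 same-labelled libraries of the lines were taken on different days. Deviations of paired libraries from their group means correlated at 0.24 at day 0, 0.42 at day 4, 0.43 at day 10, 0.01 at days 19 to 23 and −0.05 at days 27 to 30. The diff3 day 0 samples carry a mixed stem cell and epiblast stem cell type in 1 label, while their titles give 2i. Alternatives were RLE size factors, no low-count filter, DESeq2 1.42.0, the experiment as a block, the 4 day 0 libraries only or thinned to 3376500 counts, autosomal size factors, GC-corrected offsets and leaving out each library.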

Additional observations from a re-analysis of the deposited data

Results flagged for a closer look

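In 8 genes reported here the line difference (log2 PGK over E14) at day 0 differed from that over days 10 to 30 by edgeR's quasi-likelihood test of the difference itself, with Benjamini-Hochberg adjustment. Moxd1 differed by 14 on the log2 scale (adjusted p = 0.000196), a fitted value that depends on the prior count because E14 had no counts at day 0. Uggt2 differed by 4.93 (adjusted p = 0.00529), Sema5a by 6.12 (adjusted p = 0.00866), Lats2 by 4.67 and Prnp by 4.1 (adjusted p = 0.0364 each), all with a higher PGK to E14 ratio at day 0. Tenm3 differed by −3.3 (adjusted p = 0.00329) and Lgals1 by −2.04 (adjusted p = 0.0364). Plagl1 differed by −3.74 (adjusted p = 0.0334), since its line difference was 4.88 at day 0 and 8.62 over days 10 to 30, where E14 had almost no counts. The test uses the day 0 libraries that also chose these genes.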

How the results depend on the processing

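The 50 autosomal calls at day 0 became 117 without the low-count filter (54 higher, 63 lower), 566 with DESeq2 (243 higher, 323 lower), 3 with the 4 day 0 libraries only (3 higher, 0 lower), 162 with those 4 and a replicate block (104 higher, 58 lower), 1 with those 4 thinned to the shallowest, and 15 to 3097 with 1 library left out. The 3097 (2443 higher, 654 lower) came without the diff2 E14 library, 15 (7 higher, 8 lower) without the diff3 E14 library, and 28 without the diff2 (16 higher, 12 lower) or the diff3 PGK library (14 higher, 14 lower). DESeq2 kept all 50 genes, and no gene changed sign. The 9 calls within the lists became 17 without the filter, 43 with DESeq2, 1 with the 4 libraries, 29 with those and the block, 1 thinned, and 3 to 123 with 1 library left out (123 without the diff2 E14 library, 3 without the diff3 one). Of the day 0 genes 1 was called at day 4 (3 with DESeq2; 1 in each fit with a library left out) and 3 over days 10 to 30 (7 with DESeq2, 2 in the fits with a library left out). The 9 differences between day 0 and later became 29 without the filter, 47 with DESeq2 and 5 to 44 with 1 library left out. The 44 came without the diff2 E14 library of day 0, and 5 without the diff3 one or without single libraries of days 10 to 30. The cause of these moves was not tested.

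The replicate block pairs libraries with the same diff label. With it 61 genes were called at day 0, 11 within the lists, 1 at day 4, 3 over days 10 to 30 and 10 differences. It ended the calls of Pla2g4a and Lrfn3 and no other. Depth limits low genes in the diff3 E14 library, where 3 counts are 0.888 CPM.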
